A study of Mus musculus with 6 samples.

Results

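Matrix metalloproteinases (Mmps) and their tissue inhibitors (Timps) were examined in mammary tumors and matched normal, adjacent mammary glands of BK5.ATF3 mice. The 10 genes are *Mmp2*, *Mmp3*, *Mmp9*, *Mmp10*, *Mmp11*, *Mmp12*, *Mmp13*, *Mmp14*, *Timp1* and *Timp3*, taken by gene symbol from an RNA-Seq table of 15280 genes. The table lists 26 Mmp and Timp genes in all, so that 16 others served for comparison. All 3 mice were parous female transgenics in which *Atf3* is overexpressed from the bovine keratin 5 promoter, which is active in basal epithelial cells. Each had raised 1 litter before tumors arose, which in this model occurs at 6 to 12 months of age. From each mouse, 1 tumor of about 1.5 cm and the adjacent gland were sequenced, giving tumors T11035, T11640 and T9232 and normal glands M11035, M11640 and M9232. Both tissues carried the transgene, and no wild-type gland was included.

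Mmps are zinc-dependent endopeptidases that cut the proteins of the extracellular matrix and of the cell surface. They are made as inactive proenzymes, are switched on by other proteases, and are held in check by the Timps, which bind the active site. In the mammary gland, they take part in duct branching and in the regression of the gland after weaning, and in tumors they are made by stromal and immune cells as well as by the carcinoma cells. Several are classical targets of AP-1, the transcription factor family of Fos, Jun and Atf proteins.

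Of the 10 genes, 9 were upregulated DEGs in the tumors and 0 were downregulated. Among all 15280 genes, 14.5% were upregulated and 13.7% downregulated. The 10 genes were chosen with earlier results of these data known, so that their share is not a test of the family. DEGs had to pass both an FDR of 0.05 (limma on log2(CPM + 0.5), Benjamini-Hochberg adjustment over all genes) and a log2 fold change of 1 in either direction. CPM is the fragment number of a gene scaled to the effective library size. The 3 tumors lay above the 3 glands in 9 of the 10 genes, a pattern seen in 27.6% of all genes. It follows that these 9 genes were also higher in the tumor of all 3 mice. The exception in each count was *Mmp11*. The median log2 fold change was 3.09 over the 10 genes and -0.003 over all genes. With 3 libraries per tissue and the pairing by mouse set aside, an exact permutation test of a single gene cannot go below p = 0.1 (two-sided). The adjusted p-values therefore rest on the variance shared across genes.

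Depth lay between 4750989 and 7806908 fragments on genes per library, and 3 fragments, the floor used here, corresponded to 0.393 to 0.610 CPM. Floors and counting intervals cover counting error only. In these bulk samples, fewer cells of a type and less RNA per cell cannot be told apart. The tissues differed widely in their markers. Summed markers of basal and squamous epithelium lay at 45.1 to 102 CPM in the glands and 3595 to 5082 CPM in the tumors, where 10 of 10 rose, and loricrin (*Lor*) was at 0 in all glands. Adipocyte markers lay at 3313 to 6513 CPM in the glands and 159 to 218 CPM in the tumors, and 8 of 8 fell. All 6 T cell and all 6 B cell markers fell, as did 3 of 7 endothelial and 5 of 8 luminal epithelial markers, while 3 luminal markers rose. Skeletal muscle markers reached 15703 CPM in gland M11035 and 5465 CPM in gland M11640, against 375 CPM in gland M9232 and 47.7 to 98.4 CPM in the tumors. Without gland M11035, 9 of the 10 genes were still called, but that fit kept gland M11640. No fit left out both, and the part of muscle tissue was not tested.

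Promoter sequences are given first, since 4 of the 10 genes (*Mmp13*, *Mmp12*, *Mmp3* and *Mmp10*) are neighbours in 1 cluster on chromosome 9. The sequences are from RefSeq on GRCm38.p6, a later build than the mm9 used for the expression values, and cover the 100 bases before the annotated start, 5′ to 3′ along the gene. The AP-1 motif TGANTCA and the TATAAA box are in capitals. *Mmp12* has a pair of annotated starts, and the window shown is the one that holds the motif. *Mmp1b* is shown as a cluster gene with 0 fragments in the glands, *Mmp27* as the cluster gene that was lower in the tumors, and *Timp1* as an upregulated gene outside the cluster.
Mmp13 (chr9:7272414-7272513, plus strand): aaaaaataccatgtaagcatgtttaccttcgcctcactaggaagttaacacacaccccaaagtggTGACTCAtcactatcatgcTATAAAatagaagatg
Mmp12 (chr9:7347274-7347373, plus strand): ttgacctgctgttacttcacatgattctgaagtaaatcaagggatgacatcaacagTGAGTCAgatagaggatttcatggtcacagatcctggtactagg
Mmp3 (chr9:7445722-7445821, plus strand): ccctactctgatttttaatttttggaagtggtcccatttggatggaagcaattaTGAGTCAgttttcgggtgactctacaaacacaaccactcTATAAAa
Mmp10 (chr9:7502242-7502341, plus strand): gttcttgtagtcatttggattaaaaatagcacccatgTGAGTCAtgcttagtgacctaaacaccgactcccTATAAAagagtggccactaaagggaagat
Mmp1b (chr9:7388027-7388126, minus strand): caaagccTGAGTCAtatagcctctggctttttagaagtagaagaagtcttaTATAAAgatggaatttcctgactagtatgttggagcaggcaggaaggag
Mmp27 (chr9:7571296-7571395, plus strand): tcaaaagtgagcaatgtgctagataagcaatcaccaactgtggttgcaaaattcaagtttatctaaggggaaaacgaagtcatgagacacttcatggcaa
Timp1 (chrX:20870066-20870165, plus strand): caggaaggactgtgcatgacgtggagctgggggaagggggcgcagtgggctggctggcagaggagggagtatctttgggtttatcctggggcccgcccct

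Motifs were searched on both strands in the 250 bases before each start. The AP-1 letters read the same on both strands and were counted once, and no match can be both an AP-1 and an ATF/CRE match (TGACGTCA). RefSeq promoters were found for 8 of the 10 genes, all but *Mmp2* and *Mmp9*. The AP-1 motif was present in 4 of the 8 (*Mmp13*, *Mmp12*, *Mmp3* and *Mmp10*), against 7.82% of 27025 genes with a promoter in the table. It lay 35 bases before the start in *Mmp13*, 44 in *Mmp12*, 46 in *Mmp3* and 63 in *Mmp10*. In the whole chromosome 9 cluster, 8 of 10 Mmp genes held it, the exceptions being *Mmp8* and *Mmp27*, and 7 of those 8 also held TATAAA (all but *Mmp12*). Both motifs together occurred in 1.21% of all promoters. Of the cluster genes not printed above, *Mmp1a* held the AP-1 motif and was upregulated, and *Mmp8* was upregulated without it. *Mmp7* and *Mmp20* held the AP-1 motif and were not called. Outside the cluster, the AP-1 motif was found in 0 of the 11 Mmp and Timp genes with a promoter, including *Mmp11*, *Mmp14*, *Timp1* and *Timp3*. The ATF/CRE motif was found in 0 of the 8 genes (1.77% of all genes), and the ETS motif AGGAAG in 6 of them (32.3% of all genes). A match describes the letters in these windows and does not show that a factor binds there.

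*Mmp13*, the main collagenase of the mouse and able to cut fibrillar collagen, had the highest mean level in the tumors of the 10 genes per kb of exon. It was at 11.0, 3.30 and 11.1 CPM in glands M11035, M11640 and M9232, and at 688, 721 and 812 CPM in the tumors of the same mice. The tumors lay close together and far above every gland, and gland M11640 was the lowest. The mean rose from 8.45 ± 4.46 CPM (SD, n = 3) to 740 ± 64.0 CPM, an 87.6-fold difference, with a log2 difference of 6.54 ± 0.39 (standard error, adjusted p = 7.80e-06, limma). Folds are ratios of mean CPM, whereas log2 differences are those of the fitted mean log2(CPM + 0.5), so that the pair need not match exactly. This was the 65th largest rise of the table. The gene lies on chromosome 9 (mm9, 7272514 to 7283333, plus strand).

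The stromelysins *Mmp3* and *Mmp10*, which cut proteoglycans, laminin and fibronectin and can activate other proMmps, both rose. *Mmp3* (chromosome 9, 7445822 to 7455972, plus strand) was at 6.91, 37.5 and 22.4 CPM in glands M11035, M11640 and M9232 and at 211, 245 and 485 CPM in their tumors. Its level differed widely among the glands, and the lowest tumor was still well above the highest gland. The mean was 22.3 ± 15.3 CPM in the glands and 314 ± 149 CPM in the tumors, with a log2 difference of 3.98 ± 0.55 (standard error, adjusted p = 6.57e-04, limma). *Mmp10* (chromosome 9, 7502352 to 7510238, plus strand) was near absent in glands M11035, M11640 and M9232, with 3, 0 and 1 fragments (0.610, 0 and 0.137 CPM), all at or under the floor. Its tumors held 470, 788 and 1377 fragments (87.5, 103 and 206 CPM). In both stromelysins, tumor T9232 was the highest library. *Mmp10* had the largest log2 fold change of the 10 genes, 7.45 ± 0.40 (standard error, adjusted p = 4.80e-06, limma), which depends on the pseudocount and ran from 6.66 to 9.23 over the alternatives. The pooled ratio of tumor to gland was 612, with an exact 95% counting interval of 239 to 2248. Transcripts of the stromelysin genes are 81.2% identical over 1338 bp, so that the split of reads from conserved stretches is uncertain.

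*Mmp12*, the macrophage elastase, had the highest mean level per kb of exon in the glands (52.7 ± 45.0 CPM per kb, SD, n = 3), within the spread of *Timp3*. It was at 194, 193 and 757 CPM in glands M11035, M11640 and M9232 and at 846, 1712 and 1582 CPM in their tumors. Gland M9232 stood far above the other glands and just below the lowest tumor, T11035. The mean rose 3.62-fold, from 381 ± 326 CPM to 1380 ± 467 CPM, with a log2 difference of 2.11 ± 0.51 (standard error, adjusted p = 0.0108, limma). The difference within the mouse of T9232 was 1.06 on the log2 scale, against 3.15 in that of T11640. Without tumor T11640, the log2 fold change was 1.92 and the call was lost (adjusted p = 0.0517, limma). The gene (chromosome 9, 7344381 to 7369499, plus strand) overlaps exons of *Mmp1b* on the other strand over 160 bp, and the library kit does not mark strand. *Mmp1b* itself, at 0 to 5.37 CPM, was a small fraction of *Mmp12* in every library.

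The gelatinases *Mmp9* and *Mmp2*, which degrade denatured collagen and type IV collagen of basement membranes, rose by different amounts. *Mmp9* (chromosome 2, 164766280 to 164781350, plus strand) was at 5.69, 5.29 and 7.93 CPM in glands M11035, M11640 and M9232 and at 68.5, 95 and 72.4 CPM in their tumors. Its 3 glands and its 3 tumors each lay in a narrow range with a wide gap between them. The mean rose 12.5-fold, with a log2 difference of 3.54 ± 0.22 (standard error, adjusted p = 9.07e-06, limma). *Mmp2* (chromosome 8, 95351227 to 95377316, plus strand) was at 23.8, 103 and 51.3 CPM in the glands and at 110, 175 and 211 CPM in the tumors, in the same order of mice. Its groups nearly touched, at gland M11640 and tumor T11035. The mean rose 2.79-fold, from 59.3 ± 40.1 to 165 ± 50.8 CPM, with a log2 difference of 1.66 ± 0.47 (standard error, adjusted p = 0.0215, limma). The *Mmp2* call was lost without tumor T11640 (1.60, adjusted p = 0.0769) and without tumor T9232 (1.46, adjusted p = 0.0872), by limma. The 95% intervals of the log2 fold changes were 3.05 to 4.04 for *Mmp9* and 0.59 to 2.73 for *Mmp2*.

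*Mmp14*, the membrane-type Mmp that activates proMmp2 at the cell surface in a complex with Timp2, rose evenly in all mice. Its levels were 20.9, 29.2 and 27.8 CPM in glands M11035, M11640 and M9232 and 136, 160 and 201 CPM in their tumors. The glands varied little, and the groups were well apart. The mean rose 6.37-fold, from 26.0 ± 4.43 to 166 ± 32.8 CPM, with a log2 difference of 2.64 ± 0.20 (standard error, adjusted p = 2.43e-05, limma). Within single mice, the log2 difference lay between 2.43 and 2.83. The gene lies on chromosome 14 (55050441 to 55060095, plus strand).

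*Mmp11*, which unlike most Mmps is activated inside the cell by furin and is typically a product of stromal fibroblasts, was not a DEG. It was at 2.44, 20.3 and 9.85 CPM in glands M11035, M11640 and M9232 and at 12.7, 11.9 and 28.0 CPM in their tumors. The groups overlapped, and gland M11640 was higher than its own tumor while the other tumors were higher than their glands. Its log2 fold change of 0.96 had a standard error of 0.65 (95% interval -0.52 to 2.44, adjusted p = 0.269, limma), and it ran from 0.19 to 1.60 over the alternatives. This interval holds both no difference and a rise as large as that of *Mmp12*. The gene (chromosome 10, 75385967 to 75400678, minus strand) shares exons with *Gm867*, so that its reads could belong to either.

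Of the inhibitors, *Timp1*, which blocks most secreted Mmps and binds proMmp9, was close to the floor in the glands. It had 6, 4 and 3 fragments in glands M11035, M11640 and M9232 (1.22, 0.661 and 0.410 CPM) and 142, 347 and 175 fragments in their tumors (26.4, 45.5 and 26.2 CPM). Every tumor was far above every gland, and T11640 was the highest. The mean rose 42.8-fold, with a log2 difference of 4.72 ± 0.33 (standard error, adjusted p = 1.74e-05, limma). *Timp1* (chromosome X, 20447292 to 20451861, plus strand) lies in an intron of *Syn1* on the other strand, and *Syn1* was at 3.78 ± 1.49 CPM in the glands and 4.18 ± 1.43 CPM in the tumors, with no call.

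*Timp3*, the inhibitor that is held in the matrix and also blocks Adam and Adamts proteases, had the highest mean level per kb of exon of the Timps in both tissues, although *Timp2* overlapped with it in the glands (44.6 ± 20.9 against 49.2 ± 22.9 CPM per kb). Its levels were 241, 606 and 356 CPM in glands M11035, M11640 and M9232 and 742, 1214 and 1086 CPM in their tumors. The mouse of T11640 had the highest level in both tissues, and the lowest tumor was above the highest gland. The mean rose 2.53-fold, from 401 ± 187 to 1014 ± 244 CPM, with a log2 difference of 1.41 ± 0.32 (standard error, adjusted p = 0.00832, limma). Exons of *Timp3* (chromosome 10, 85763117 to 85812251, plus strand) overlap *Syn3* on the other strand, which was at 23.4 CPM in the glands and 15.1 CPM in the tumors.

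**Figure D1:**
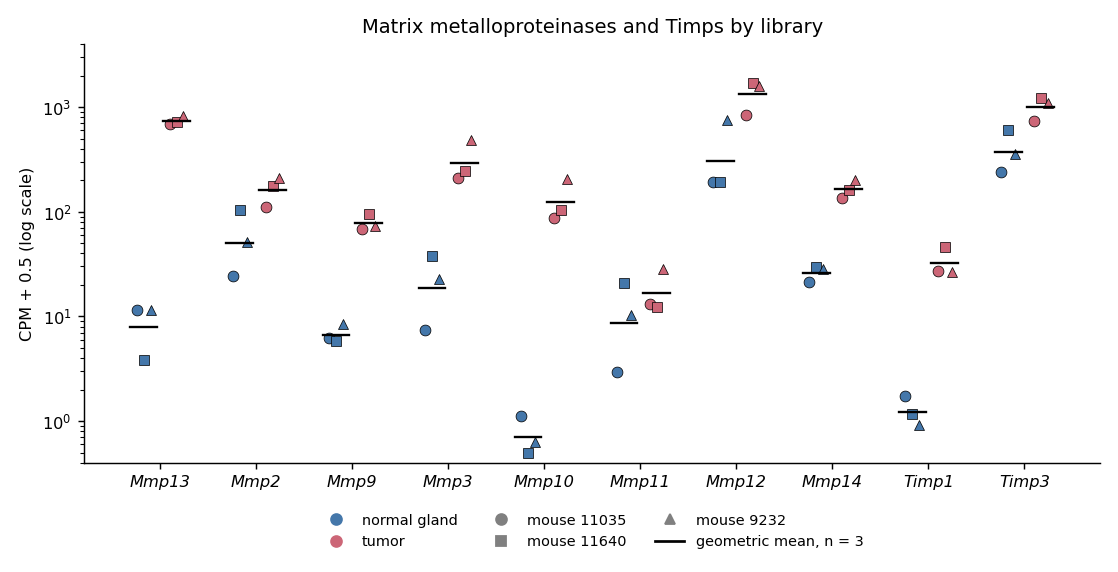
CPM + 0.5 on a log axis for each of the 10 genes, with blue points for normal glands, red points for tumors, a shape for each mouse and black bars for the geometric mean of 3 libraries. The groups are apart in 9 genes and overlap in Mmp11, with the widest gaps in Mmp10, Mmp13 and Timp1 and the narrowest in Mmp2, where the highest gland is at 103 CPM and the lowest tumor at 110 CPM.

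The other 16 Mmp and Timp genes showed no such common direction, but the 10 genes had been chosen with earlier results of these data known. Over the whole family of 26 genes, 13 were upregulated, 2 were downregulated and 11 were not DEGs. Of the other 16, 4 were upregulated, 2 were downregulated and 10 were not DEGs, with a median log2 fold change of 0.57. This median holds also with *Mmp1a* and *Mmp1b* at the bounds given next. The collagenases *Mmp1b* and *Mmp1a* had 0 fragments in all glands and 87 and 22 fragments in the tumors. Against the floor of 3 fragments per library, *Mmp1b* was at least 8.57-fold higher and *Mmp1a* at least 2.20-fold higher. The transcripts of this pair are 90.5% identical over 1453 bp, so that their split is uncertain. *Mmp23* rose from 2.01 ± 0.979 to 6.71 ± 0.725 CPM (1.60 on the log2 scale, adjusted p = 0.00590, limma). *Mmp8*, the neutrophil collagenase, was at 8.06 ± 1.85 CPM in the glands and 27.8 ± 17.4 CPM in the tumors (1.54, adjusted p = 0.0228, limma). Its call was lost without gland M11640 (adjusted p = 0.0712), tumor T11640 (0.0805) or tumor T9232 (0.0704), by limma.

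*Timp4*, an inhibitor found in fat and heart, was the family gene with the largest fall. It had 26, 62 and 76 fragments in glands M11035, M11640 and M9232 and 1, 2 and 1 fragments in their tumors, all of them under the floor. The glands were at 8.64 ± 2.91 CPM, and the pooled ratio of gland to tumor was 44.1 (exact 95% counting interval 16.9 to 164). *Timp4* thus fell by 3.65 on the log2 scale, with a standard error of 0.34 (adjusted p = 7.68e-05, limma), a value that ran from -5.42 to -2.96 over the alternatives. Adipocyte markers fell in the same libraries, and their part in this result was not tested. The gene lies in an intron of *Syn2* on the other strand, which fell too, by 1.45 on the log2 scale. *Mmp27*, at 9.44 ± 5.03 CPM in the glands and 3.24 ± 1.81 CPM in the tumors, was called lower (-1.39, adjusted p = 0.0479, limma) although the groups overlapped. That call was lost without gland M11640 (adjusted p = 0.150), gland M9232 (0.0966), tumor T11035 (0.151) or tumor T11640 (0.113), by limma.

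Among the 10 family genes that were not called, *Timp2*, the partner of Mmp14 in proMmp2 activation, was at 92.7, 255 and 173 CPM in glands M11035, M11640 and M9232. It was at 110, 144 and 176 CPM in their tumors, within the range of the glands. Its log2 fold change was -0.18 (95% interval -0.96 to 0.59, adjusted p = 0.700, limma). *Mmp15*, another membrane-type Mmp, was lower in every tumor (6.27 ± 0.573 against 3.00 ± 0.476 CPM), and its log2 fold change of -0.96 missed the fold threshold (adjusted p = 0.0133, limma). It was called lower in 7 of 16 alternatives, among them DESeq2 and edgeR (both -1.07). *Mmp19* (0.70) and *Mmp17* (0.76) were also under the fold threshold, with adjusted p = 0.0223 and 0.0472 (limma). *Mmp20* (1.18) had an adjusted p of 0.0671 (limma), with 2 fragments in the glands and 19 in the tumors. The log2 fold changes of *Mmp28*, *Mmp7*, *Mmp16*, *Mmp25* and *Mmp21* lay between -0.10 and 0.73, and their groups overlapped.

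**Figure D2:**
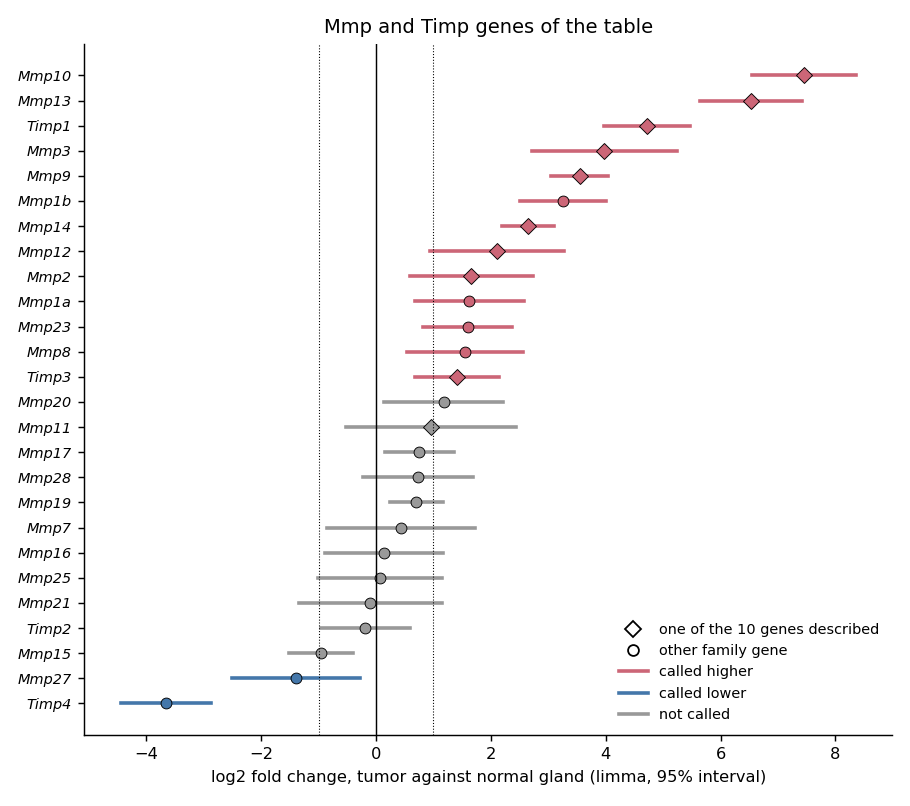
Log2 fold change of tumor against normal gland with its 95% interval (limma, n = 3 per tissue) for the 26 Mmp and Timp genes of the table, with diamonds for the 10 genes described and circles for the other 16. Red marks genes called higher, blue those called lower and grey those not called, the dotted lines stand at -1 and 1, and the values run from 7.45 in Mmp10 to -3.65 in Timp4.

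The cluster on chromosome 9 held 10 Mmp genes over 427 kb (mm9, 7272514 to 7699585), in the order *Mmp13*, *Mmp12*, *Mmp1b*, *Mmp3*, *Mmp1a*, *Mmp10*, *Mmp8*, *Mmp27*, *Mmp20* and *Mmp7*. Of these, 7 were upregulated, *Mmp27* was downregulated, and *Mmp20* and *Mmp7* were not called. The largest log2 fold changes, those of *Mmp13* and *Mmp10*, lay at genes separated by *Mmp12*, *Mmp1b*, *Mmp3* and *Mmp1a*, with smaller values. Of the 8 other genes of the table within 500 kb on either side, 2 were upregulated, 1 was downregulated and 5 were not called. *Yap1*, a coactivator of the Hippo pathway, had a log2 fold change of 1.54, and *Birc2*, an inhibitor of apoptosis, one of -1.08. *Dcun1d5*, the nearest neighbour beyond *Mmp13*, was at 85.0 ± 9.60 CPM in the glands and 121 ± 15.9 CPM in the tumors, and *Tmem123*, beyond *Mmp7*, at 491 ± 49.7 and 390 ± 53.5 CPM, both without a call.

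**Figure D3:**
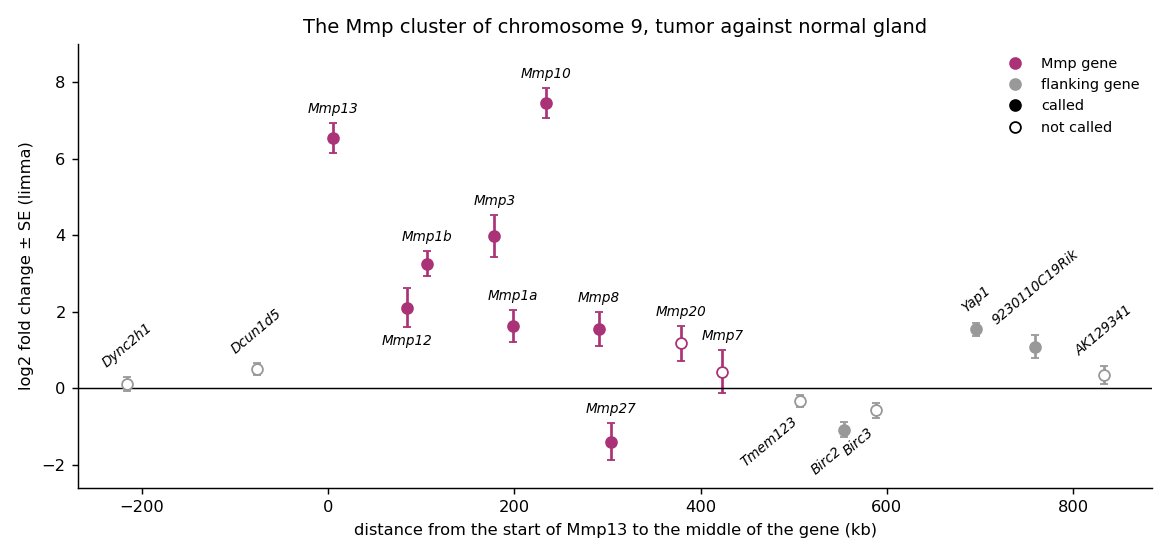
Log2 fold change ± standard error (limma) of the 10 Mmp genes of the chromosome 9 cluster (purple) and of the 8 genes within 500 kb around it (grey), against the distance in kb from the start of Mmp13 to the middle of each gene. Filled points were called and open points were not; 7 Mmp genes are called above 0, Mmp27 is called at -1.39, and the flanking genes stay between -1.08 and 1.54.

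Levels were compared between genes as CPM per kb of the union of exons. In the tumors, *Mmp13* was at 277 ± 23.9 CPM per kb, followed by *Mmp12* (191 ± 64.5), *Mmp3* (175 ± 83.1), *Timp3* (124 ± 30.0) and *Mmp10* (77.0 ± 37.5). *Mmp14* (63.8 ± 12.6), *Mmp2* (54.4 ± 16.7) and *Timp1* (36.8 ± 12.5) came next, and *Mmp9* (22.2 ± 4.05) and *Mmp11* (6.63 ± 3.44) were the lowest. From *Mmp12* to *Timp1*, each gene's libraries overlapped with those of the next in this order. With the length of the longest transcript, *Mmp12* (308 CPM per kb) stood above *Mmp13*, and *Timp3* (215) above *Mmp3*, so that these ranks depend on the length used. In the glands, *Mmp12* (52.7 ± 45.0 CPM per kb) and *Timp3* (49.2 ± 22.9) were the highest and overlapped, and *Timp1* (0.860 ± 0.467) and *Mmp10* (0.145 ± 0.186) the lowest.

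Summed over the 22 Mmp genes of the table, the level per length was 72.8, 125 and 176 CPM per kb in glands M11035, M11640 and M9232 and reached 682, 889 and 1138 CPM per kb in their tumors. The makeup of this sum differed between the tissues. *Mmp13* made up 5.64%, 0.988% and 2.35% of it in the glands and 37.7%, 30.3% and 26.7% in the tumors. *Mmp10* took at most 0.487% in a gland and between 6.76% and 10.5% in the tumors. *Mmp12* took 36.8%, 21.3% and 59.5% in the glands and 17.1%, 26.6% and 19.2% in the tumors, which overlapped.

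The 4 Timp genes summed to 58.5, 148 and 95.9 CPM per kb in glands M11035, M11640 and M9232 and to 149, 238 and 208 CPM per kb in their tumors. *Timp3* made up between 45.5% and 50.6% of the sum in the glands and between 61.0% and 64.1% in the tumors. *Timp2* took 40.7% to 46.3% in the glands and 15.6% to 21.7% in the tumors, and *Timp1* took 0.482% to 2.35% in the glands and 14.2% to 21.6% in the tumors. *Timp4* went from 4.89% to 7.65% of the sum in the glands to at most 0.0880% in the tumors.

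**Figure D4:**
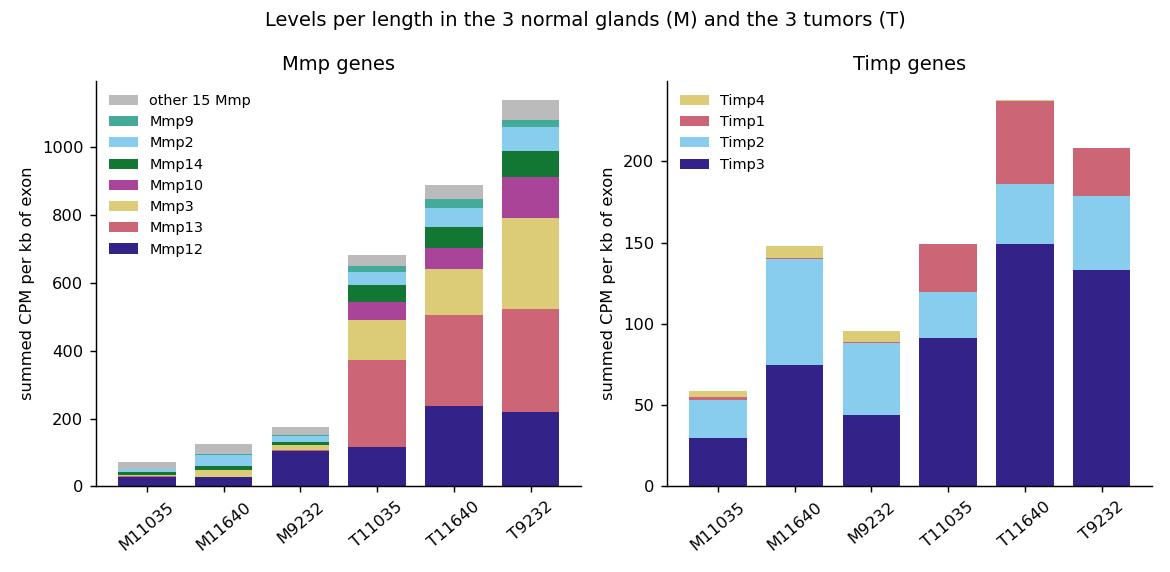
Summed CPM per kb of exon in each library for the 22 Mmp genes (left) and the 4 Timp genes (right), stacked by gene, with separate axes for the panels. The Mmp sum is 72.8 to 176 CPM per kb in the glands and 682 to 1138 in the tumors, where Mmp13, Mmp12 and Mmp3 form most of it, and the Timp sum is 58.5 to 148 in the glands and 149 to 238 in the tumors.

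Ratios of enzymes to inhibitors were computed in each library from the levels per length and are described without a test. The log2 ratio of all Mmps to all Timps was 0.32, -0.24 and 0.88 in glands M11035, M11640 and M9232, against 2.19, 1.90 and 2.45 in their tumors. All tumors were thus above all glands, by 1.87 on average. The ratio of *Mmp14* to *Timp2* went from -2.05 ± 0.49 (SD, n = 3) to 0.80 ± 0.08 on the log2 scale, and that of *Mmp2* to *Timp2* from -1.32 ± 0.33 to 0.54 ± 0.15, so that *Timp2* exceeded both enzymes per length in every gland and neither in any tumor. *Mmp9* and *Timp1* showed the opposite direction, with a log2 ratio of 1.17 ± 1.04 in the glands and -0.69 ± 0.21 in the tumors, since the inhibitor differed more than the enzyme. The ratio of *Mmp13* to *Timp1* overlapped between the tissues (1.82 ± 1.23 and 2.96 ± 0.50). Both ratios to *Timp1* are uncertain in the glands, since they rest on 6, 4 and 3 *Timp1* fragments in M11035, M11640 and M9232. All the ratios count RNA and carry no measure of enzyme activity.

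Some of the genes were set beside the markers of cell types known to make them, as the gene's CPM in percent of the summed CPM of the marker list. These pairs were chosen after the values had been seen. *Mmp12* was at 16.6%, 8.78% and 18.5% of the macrophage markers in glands M11035, M11640 and M9232 and at 51.1%, 55.8% and 52.6% in their tumors. The macrophage sum itself overlapped, at 1165 to 4105 CPM in the glands and 1655 to 3067 CPM in the tumors, and 2 of its 10 markers rose and 1 fell. *Cd68* was at 61.4 CPM in the glands and 60.0 CPM in the tumors. *Lyz2*, at 1690 CPM in the glands and 1362 CPM in the tumors, made up most of the sum in the glands. Relative to each marker singly, *Mmp12* was higher in all tumors than in all glands for 7 of the 10, *Cd68* and *Lyz2* among them, and the tissues overlapped for *Itgam*, *Msr1* and *C1qa*. The scavenger receptor *Msr1* rose from 82.2 to 401 CPM, and the ratio of *Mmp12* to it lay at 3.05 to 5.31 in the glands and 2.73 to 3.81 in the tumors. The part of macrophage content in the rise of *Mmp12* was not tested.

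*Mmp9* was at 1.28% to 2.31% of the neutrophil markers in the glands and 5.08% to 8.94% in the tumors. The neutrophil sum also differed, at 229 to 620 CPM in the glands and 865 to 1425 CPM in the tumors, with 4 of 9 markers higher and 3 lower. Its makeup differed as well. The largest part was *Ltf* in the glands (250 CPM, then 27.3 CPM in the tumors) and *S100a9* in the tumors (683 CPM, against 40.4 CPM in the glands). *Ltf* alone was at 103, 148 and 500 CPM in glands M11035, M11640 and M9232, where the whole sums were 293, 229 and 620 CPM. The gap of *Mmp9* relative to the sum thus depends on *Ltf*. Relative to each marker singly, *Mmp9* was higher in all tumors for 6 of the 9 and overlapped for *S100a8* and *S100a9*, and the remaining marker was at 0 in at least 1 library. Of those 6, *Csf3r* and *Cxcr2* rose, *Ngp* and *Ltf* fell, and *Retnlg* and *Camp* had lower means in the tumors without a call. The part of neutrophil content in the rise of *Mmp9* was not tested. *Mmp8* was close to 55% of *Csf3r*, the receptor of granulocyte colony-stimulating factor, in all 3 glands (55.4%, 55.4% and 55.1%) and at 15.7%, 43.4% and 44.9% of it in the tumors, while *Csf3r* rose from 14.6 to 78.7 CPM. The gland ratios rest on 46, 36 and 65 *Mmp8* and 83, 65 and 118 *Csf3r* fragments. Their counting error is wider than the differences between them. *Mmp8* relative to the whole neutrophil list overlapped between the tissues.

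The fibroblast markers summed to 500, 1720 and 841 CPM in glands M11035, M11640 and M9232 and to 1350 to 1936 CPM in the tumors, with 4 of 10 higher and 1 lower. *Mmp2*, *Mmp3*, *Mmp11*, *Mmp14*, *Timp3* and *Timp2* had the same order among the glands as this sum, lowest in M11035 and highest in M11640. Relative to it, *Mmp2* was at 4.76% to 6.10% in the glands and 8.18% to 11.6% in the tumors, and *Timp3* at 35.3% to 48.1% and 55.0% to 80.4%. *Mmp3* (1.38% to 2.67%, then 15.7% to 25.1%) and *Mmp14* (1.70% to 4.19%, then 10.1% to 10.6%) were farther apart. *Timp2* went the other way, from 14.9% to 20.6% in the glands to 8.18% to 9.54% in the tumors, and *Mmp11* overlapped. These positions depended on the marker. Relative to each of the 10 markers singly, all tumors lay above all glands for 9 markers with *Mmp3*, 7 with *Mmp14*, 5 with *Mmp2*, 3 with *Timp3* and 2 with *Mmp11*. All tumors lay below all glands relative to *Fbln1* for *Mmp2* and *Mmp11*, and relative to *Fbln1* and *Col6a3* for *Timp3*. *Col6a3*, a collagen VI chain, rose from 102 to 735 CPM and *Fbln1* from 9.20 to 60.1 CPM, while *Dpt* fell from 372 to 56.5 CPM. The part of fibroblast content in these rises was not tested.

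*Mmp13* relative to the summed basal and squamous epithelial markers did not separate the tissues. It was at 24.3%, 3.60% and 10.9% of their sum in glands M11035, M11640 and M9232 and at 19.1%, 14.2% and 17.2% in their tumors, and the same held for *Timp1* (0.403% to 2.70% and 0.555% to 0.895%). *Mmp10* stayed above the glands on this scale, at 2.03% to 4.37% in the tumors against 0 to 1.35%, and relative to single markers for 3 of the 8 with reads in every library. Relative to these 8 singly, all tumors lay below all glands for 3 with *Mmp13* and 5 with *Timp1*, and above for 1 and 0. In the glands, *Timp1* had only 3 to 6 fragments. *Mmp10* had 3, 0 and 1 fragments in glands M11035, M11640 and M9232, all at or under the floor, so that its gap on this scale is uncertain. *Krt1*, *Krt6a*, *Krtdap* and *Dsg3*, among those markers, were at most 1.63 CPM in the glands. The part of epithelial content in the rises of *Mmp13*, *Mmp10* and *Timp1* was not tested.

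**Figure D5:**
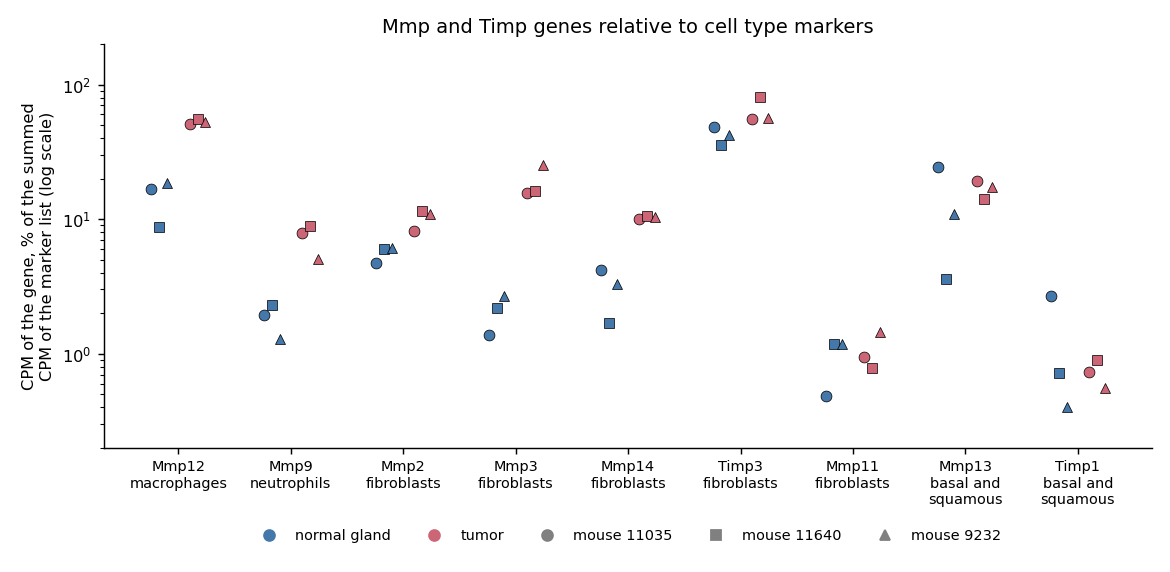
CPM of each gene in percent of the summed CPM of a cell type's marker list (log axis), by library, with blue points for normal glands, red points for tumors and a shape for each mouse. Mmp12 relative to macrophage markers (8.78% to 18.5%, then 51.1% to 55.8%), Mmp9 relative to neutrophil markers and Mmp2, Mmp3, Mmp14 and Timp3 relative to fibroblast markers are apart for these sums, whereas Mmp11 relative to fibroblast markers and Mmp13 and Timp1 relative to basal and squamous markers overlap. The gap of Mmp9 depends on Ltf, the largest part of the neutrophil sum in the glands.

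Other genes of the pathway were taken from lists compiled with earlier results of these data known. Of 11 proteases that activate Mmps, 4 rose and 2 fell, with a median log2 fold change of 0.81. The proprotein convertase *Pcsk5* (18.9 to 84.9 CPM, log2 fold change 2.21), the urokinase *Plau* (29.4 to 128 CPM, 2.19), the membrane protease matriptase *St14* (10.8 to 38.4 CPM, 1.84) and the tissue plasminogen activator *Plat* (10.9 to 32.1 CPM, 1.76) rose. *Furin*, which activates Mmp14 and Mmp11, was at 14.1 CPM in the glands and 28.4 CPM in the tumors, just under the fold threshold (0.98, adjusted p = 0.00334, limma). *Pcsk6* (-1.26) and the mast cell chymase *Cma1* (-2.44) fell, and of 7 mast cell markers 5 fell with the latter and 1, the histidine decarboxylase *Hdc*, rose (2.40 to 19.6 CPM, 2.71). The call of *Plat* was lost without tumor T11640 or T9232 (adjusted p = 0.0593 and 0.0545, limma), and those of *Pcsk6* and *Cma1* without gland M11640 (0.0757 and 0.0517), tumor T11035 (0.0761 and 0.0572) or tumor T11640 (0.0539 and 0.0547).

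Of 9 surface partners and clearance receptors, 5 rose and 1 fell, with a median of 1.15. The shed proteoglycan *Sdc1* (15.6 to 196 CPM, log2 fold change 3.66), the Mmp9 docking receptor *Cd44* (181 to 990 CPM, 2.46), the urokinase receptor *Plaur* (3.60 to 20.0 CPM, 2.35), the integrin *Itgav* (1.54) and the clearance receptor *Lrp1* (1.15) rose. *Lrp1* fell under the fold threshold without gland M11035 (0.94) or tumor T9232 (0.99). *Lcn2*, which binds Mmp9 and is abundant in neutrophils, was at 312 ± 256 CPM in the glands and 74.7 ± 36.3 CPM in the tumors (-1.79, adjusted p = 0.0474, limma). With the mouse as a block, its call was lost (adjusted p = 0.0719, limma), as it was in each fit without 1 library except that without gland M11035 (adjusted p from 0.0537 to 0.168). *Bsg*, an inducer of Mmps at the cell surface, was at 110 CPM in the glands and 115 CPM in the tumors, with no call.

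Of 6 other inhibitors of Mmps and of their activators, 4 rose and 0 fell, with a median of 2.84. All 4 act on serine proteases that lie upstream of Mmps. *Serpinb2* (log2 fold change 6.54) and *Serpine2* (11.0 to 276 CPM, 4.61), which inhibit plasminogen activators, were joined by *Tfpi2* (2.99) and by *Spint1* (2.69), an inhibitor of matriptase. *Reck*, a membrane-anchored inhibitor of Mmps themselves, was at 25.3 ± 12.6 CPM in the glands and 15.2 ± 1.17 CPM in the tumors, with no call (-0.61, adjusted p = 0.160, limma).

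Of 21 matrix proteins that Mmps cut, 15 rose and 1 fell, with a median of 2.60. The fibrillar collagens *Col1a1* (72.8 to 1636 CPM, log2 fold change 4.63) and *Col1a2* (241 to 2912 CPM, 3.75), the anchoring fibril collagen *Col7a1* (2.04 to 39.9 CPM), tenascin *Tnc* (4.47) and versican *Vcan* (3.87) had the largest rises, and vitronectin *Vtn* fell (-3.06). Among 26 Adam and Adamts proteases, 9 rose and 2 fell, with a median of 0.52. The aggrecanase *Adamts4* rose most (2.74 to 72.6 CPM, 4.48), followed by *Adamts16* (2.61), *Adamts7* (2.25), the procollagen peptidase *Adamts2* (2.16) and *Adam8* (2.05), and *Adam33* had the largest fall (-1.33).

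Of 16 cytokines and growth factors known to induce Mmps, 8 rose and 1 fell, with a median of 1.35. Interleukin 1 and ligands of the EGF receptor led the rises, with *Ereg* (log2 fold change 5.38), *Il1b* (7.70 to 308 CPM, 5.24), *Tgfa* (4.28), *Hbegf* (3.93) and *Il1a* (3.87), and *Fgf2* fell (-1.32). Of 21 transcription factors with known sites in Mmp promoters, 7 rose and 2 fell, with a median of 0.65. The ETS factor *Etv4* (0.373 to 9.44 CPM, 3.52), the AP-1 subunits *Fosl2* (63.0 to 278 CPM, 2.13) and *Junb* (1.72) and the factor *Cebpb* (1.34) rose, and *Ets1* (-1.62) and *Tcf7* (-1.34) fell. The call of *Junb* was lost without gland M11640, gland M9232, tumor T11640 or tumor T9232 (adjusted p = 0.0634, 0.0533, 0.0526 and 0.0836, limma). That of *Tcf7* was lost without gland M11035 (log2 fold change -0.92), tumor T11035 (adjusted p = 0.0625, limma) or tumor T9232 (0.0882). *Atf3*, the gene of the transgene, was at 4.47, 8.09 and 22.6 CPM in glands M11035, M11640 and M9232 and at 13.4, 18.3 and 19.3 CPM in their tumors. The groups overlapped, and the log2 fold change was 0.80 (adjusted p = 0.223, limma).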

How the data were processed

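Libraries of total RNA (NuGEN Ovation RNA-Seq V2, which does not mark strand) were sequenced by the authors as read pairs, mapped with TopHat2 2.0.3 to mm9 and counted per RefSeq gene with HTSeq 0.5.3p9, and genes with fewer than 10 fragments over all samples were removed. CASAVA 1.8.2 and edgeR 3.6.1 are also named in the submitters' processing notes. The deposited table holds a normalized expression signal, CPM on the effective library size of edgeR, whose columns sum to between 952151 and 1041170. Whole fragments could be recovered from it, for 100% of values in every library within 0.01 fragments. The test had been planned for CPM and was applied unchanged to this signal.

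All 15280 genes entered a limma 3.58.1 fit (R 4.3.3, two-sided) of log2(CPM + 0.5) with a trended prior variance and no filter on low values. Fold changes on this scale understate those of low genes. The calling thresholds follow the study's methods. Alternatives were pseudocounts of 0.1 and 1, a mean of at least 1 CPM, other scalings, no trend, a replicate block, edgeR 4.0.16 and DESeq2 1.42.0 on the recovered fragments, and each library left out. The same mouse gave both tissues, so the mouse number pairs the samples; over 14712 genes, the deviations of the 2 tissues from their group means correlated with r = 0.107, 0.151 and 0.0168. The methods do not state whether the mouse was a model term, and the reported fit has none. Same-tissue libraries differed by more than sampling noise (lowest chi-square per degree of freedom 13.0). The p-values measure the spread between 3 mice per tissue.

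The 10 genes and all lists were chosen with earlier results of these data known. Named were all Mmp and Timp genes, the called activating proteases, surface partners and other inhibitors, and of the remaining lists the highest and lowest called gene with up to 4 more of the largest absolute log2 fold change. *Furin*, *Bsg*, *Reck*, *Atf3*, *Csf3r*, the single markers set beside the Mmp and Timp genes, *Hdc* and the flanking genes were added after their values were seen. Of 232 listed genes, 223 were in the table by symbol or synonym, and the others were not analysed here. An item planned for the list of other inhibitors is not reported here and was left out of its counts. Positions, exon lengths and overlaps are from GENCODE vM1 (mm9), transcripts were compared with BLAST 2.17.0, and promoters are from RefSeq (GRCm38.p6).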

Additional observations from a re-analysis of the deposited data

How the results depend on the processing

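Of 160 values of the 10 genes over the alternatives, 157 kept their direction and their side of the threshold, 3 lost the call (*Mmp12* without tumor T11640, *Mmp2* without tumor T11640 or T9232) and 0 reversed. With the replicate block, that is, the mouse as the pairing, 9 of the 10 genes were called and 4298 genes in all (limma), against 4309 without it, and the edgeR fit with the block called 9 and 4462. Among the genes named, the block ended the call of *Lcn2* alone. The other settings with all libraries also called 9 of the 10 genes, with 4031 (pseudocount 1) to 4462 (edgeR) genes in all, 4436 by DESeq2. Leaving out 1 library gave 3774 (without tumor T11640) to 4374 (without gland M9232) calls in all and 7 to 9 among the 10 genes, 7 without tumor T11640 and 8 without tumor T9232. Scaling to the upper quartile shifted the median of all genes to -0.07 on the log2 scale. Among 213 other listed genes, 48 changed their call in at least 1 setting and 0 values reversed. Depth limits *Mmp10*, *Timp1*, *Mmp1a*, *Mmp1b* and *Mmp20* in the glands and *Timp4* in the tumors, where few or no fragments stand behind the level.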
